A study of Homo sapiens with 4 samples.

Results

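Keratin genes were defined as the protein-coding genes of GENCODE release 44 named *KRT* followed by a number, with or without a letter, and 55 of 20046 protein-coding genes met that definition. In that annotation of GRCh38, 27 of them lie in a cluster on chromosome 12, which holds the type II genes and the type I gene *KRT18*, and 28 lie in the type I cluster on chromosome 17. Their Flag-FLI1 peaks were taken as all peaks that overlapped 3 kb either side of a transcription start site (TSS), a gene body, or the interval between neighbouring keratin genes of a cluster. This gave 53 of 30819 peaks in the control and 57 of 39654 peaks in the IFN-γ library.

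ChIP-seq was performed in HK1, an established human nasopharyngeal carcinoma cell line, overexpressing Flag-tagged FLI1. An antibody to the Flag tag was used, which targets the introduced protein and not FLI1 encoded by the cells' own gene. No Flag ChIP of cells without the tag was among the samples, so unspecific signal was not assessed. One group was the control, treated with PBS, and the other was treated with IFN-γ, and both carried the overexpressed FLI1. Each group had 1 Flag ChIP library and 1 input, and the inputs were not analysed here. The sources used here do not give whether the line was a clone or a pool. The peak lists do not measure RNA, so neither the level of FLI1 nor the keratin expression of the cells could be checked in them. With 1 library per condition, no effect of the treatment was tested, and each difference below is one between 2 libraries.

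Keratins are the intermediate filament proteins of epithelial cells. A filament is built from pairs of one type I and one type II keratin, so the genes of both clusters are used together: *KRT8* with *KRT18* in simple epithelia, *KRT5* with *KRT14* in the basal layer of stratified epithelia, *KRT1* with *KRT10* above it. Carcinomas of epithelial origin, including those of the nasopharynx, are recognised in pathology by keratin staining. FLI1 is a transcription factor of the ETS family, which recognises a GGAA core, and AP-1, a dimer of FOS and JUN family proteins, is a common activator of keratin genes and of epithelial enhancers.

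For each peak the deposited list gives the fold enrichment at the summit over the local background. Together with −log10 p it fixes the pileup, that is, how many fragments cover the summit, and whole-number pileups were recovered for 100% of the peaks, with a relative error in the deposited value of at most 6.21e-06. The median pileup at the keratin peaks was 14 fragments in the control and 23 in the IFN-γ library. The lowest backgrounds, 1.06 fragments for the control and 1.54 for IFN-γ, gave a relative depth of 1.46. A missing peak means only that a site was below the calling cutoff of that library; it may still have been bound. All intervals below are exact 95% intervals and cover counting error only.

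The sequences under the summits that carry the results are shown first, on the plus strand of GRCh38 and in lower case, with the motif of interest in capitals. The first 3 are the strongest or shared peaks of the simple epithelial and basal genes. Each has an AP-1 motif, TGANTCA, in capitals and also GGAA cores, which are left in lower case. These peaks lie in intron 1 of *KRT18* (chr12:52949778-52949978), in intron 6 of *KRT7* (chr12:52244252-52244452) and inside the annotated span of *KRT15*, upstream of its main TSS and near the 3′ end of *KRT19* (chr17:41521793-41521893).
KRT8 and KRT18: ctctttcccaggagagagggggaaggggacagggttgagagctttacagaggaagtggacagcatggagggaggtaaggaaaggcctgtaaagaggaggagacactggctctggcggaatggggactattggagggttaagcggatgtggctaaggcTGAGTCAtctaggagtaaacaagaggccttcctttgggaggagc
KRT7: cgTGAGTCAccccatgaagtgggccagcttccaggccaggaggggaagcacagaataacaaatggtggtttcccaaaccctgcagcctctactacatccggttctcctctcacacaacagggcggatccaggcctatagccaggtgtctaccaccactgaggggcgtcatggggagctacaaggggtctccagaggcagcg
KRT15: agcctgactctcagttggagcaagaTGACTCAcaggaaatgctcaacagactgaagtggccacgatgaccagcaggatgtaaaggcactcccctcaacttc

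The next is the summit of the strongest keratin peak, in exon 7 of *KRT10* (chr17:40819008-40819108). Its capitals mark the GGAA cores, which read TTCC where they are on the minus strand. It shows separate cores in a repetitive coding stretch, without an ETS octamer or an AP-1 motif.
KRT10: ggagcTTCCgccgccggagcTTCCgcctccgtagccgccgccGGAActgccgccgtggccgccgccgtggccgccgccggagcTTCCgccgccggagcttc

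Another group shows 4 sites between keratin genes. The first, between *KRT6B* and *KRT6C* (chr12:52455925-52456125), has an AP-1 motif in capitals, 85 bp from the IFN-γ summit. It also has GGAA cores, which are left in lower case. The next, between *KRT77* and *KRT76* (chr12:52741486-52741686), has capitals on its GGAA cores and on a match to the interferon-stimulated response element (ISRE) letters GAAANNGAAA. The last pair, between *KRT20* and *KRT23* (chr17:40907148-40907348) and between *KRT40* and *KRT33A* among the keratin-associated protein genes (chr17:41147816-41147916), has uninterrupted runs of GGAA units in capitals, 13 units in the former and runs of 11 and 4 units in the latter.
KRT6B to KRT6C: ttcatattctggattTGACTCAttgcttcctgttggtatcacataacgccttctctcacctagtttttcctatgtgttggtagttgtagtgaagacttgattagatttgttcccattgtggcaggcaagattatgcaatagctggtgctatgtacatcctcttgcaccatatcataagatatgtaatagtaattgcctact
KRT77 to KRT76: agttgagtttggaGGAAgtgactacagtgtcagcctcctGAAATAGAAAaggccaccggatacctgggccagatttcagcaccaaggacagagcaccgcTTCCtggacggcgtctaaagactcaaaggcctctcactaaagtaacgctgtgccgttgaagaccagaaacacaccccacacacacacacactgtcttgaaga
KRT20 to KRT23: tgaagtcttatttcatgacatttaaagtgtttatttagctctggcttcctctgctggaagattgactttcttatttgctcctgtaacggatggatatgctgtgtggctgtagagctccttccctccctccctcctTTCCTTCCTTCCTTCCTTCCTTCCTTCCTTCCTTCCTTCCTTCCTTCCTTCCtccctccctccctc
KRT40 to KRT33A: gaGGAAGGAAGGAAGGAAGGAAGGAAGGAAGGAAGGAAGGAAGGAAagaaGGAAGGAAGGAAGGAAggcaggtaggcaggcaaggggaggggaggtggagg

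The last one is a *KRT8* site far upstream of its main TSS (chr12:52926470-52926570), shown for an ETS octamer at a keratin summit, CCGGAAGT, in capitals.
upstream of KRT8: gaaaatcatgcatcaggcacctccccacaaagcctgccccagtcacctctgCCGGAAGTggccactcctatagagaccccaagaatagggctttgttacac

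Few keratin genes had a promoter peak. In the control library 11 of 55 keratin genes, 20%, had a peak within 3 kb of a TSS, against 61.9% of all protein-coding genes. In the IFN-γ library 15 did, 27.3%, against 59.7%. In both libraries 8 did, 14.5%, against 56.0%, and these were *KRT7*, *KRT8*, *KRT15*, *KRT17*, *KRT18*, *KRT19*, *KRT78* and *KRT80*. A promoter peak was in the control list alone for 3 keratin genes, *KRT16*, *KRT34* and *KRT75*, or 5.45% against 5.90% of all genes. It was in the IFN-γ list alone for 7, *KRT6A*, *KRT10*, *KRT13*, *KRT23*, *KRT36*, *KRT79* and *KRT81*, or 12.7% against 3.70%. Since most keratin genes had no control peak to begin with, the same counts were also read over the genes that could switch: 7 of 44 keratin genes without a control peak had an IFN-γ peak, 15.9%, against 9.71% of all such genes, and 3 of 11 with a control peak had no IFN-γ peak, 27.3%, against 9.53%. With the IFN-γ list cut to the length of the control list, 13 keratin genes had a promoter peak. With windows of 1 kb instead of 3 kb, 9 did in the control and 8 in the IFN-γ library, so the higher number in the IFN-γ list came from peaks more than 1 kb from a TSS.

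Counting gene bodies too, 12 keratin genes had a peak in the control library, against 67.6% of all genes, and 17 had one in the IFN-γ library, against 67.8%. In at least 1 library 19 did, 34.5%, against 72.8%, and 36 keratin genes had none in either library. The median length of the keratin genes was 7098 bp, against 27424 bp over all protein-coding genes.

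**Figure D1:**
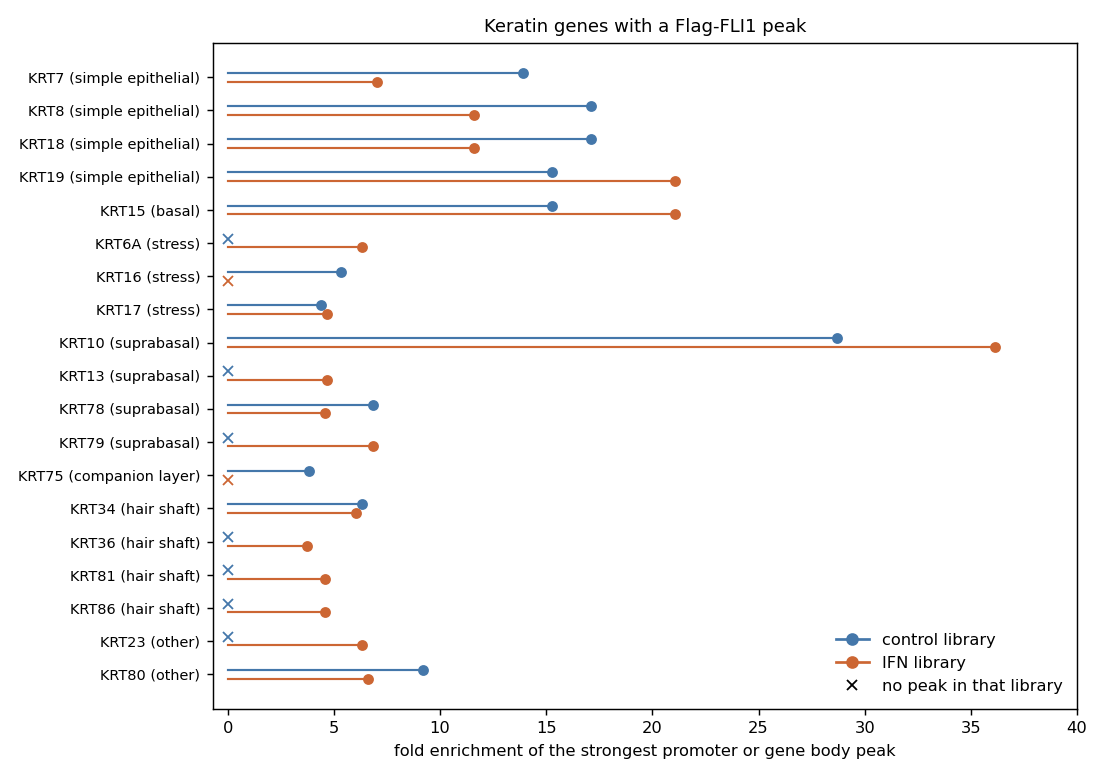
Fold enrichment (horizontal axis) of the strongest promoter or gene body peak of each of the 19 keratin genes with a peak, in the control library (blue) and the IFN-γ library (orange); a cross at 0 marks no peak in that library. *KRT10* was the highest in both, and the same peak stands for *KRT8* and *KRT18* and for *KRT15* and *KRT19*.

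Of the 5 simple epithelial keratins, 4 had promoter peaks in both libraries. *KRT8* and *KRT18*, whose products pair with each other, lie next to each other in opposite orientation, and a long annotated *KRT8* transcript starts inside *KRT18*. Their strongest peak, in intron 1 of *KRT18* with the TGAGTCA motif shown above, was therefore within 3 kb of a TSS of both. Its fold enrichment was 17.1 in the control library, with 42 fragments. In the IFN-γ library 2 separate peaks covered the same stretch, with fold enrichments of 10.6 and 11.6 and 51 and 64 fragments. The TGAGTCA motif lay 57 bp from the summit of the 11.6-fold peak. The fold was lower in the IFN-γ library although more fragments were piled up there, since the local background rose from 1.51 to 4.60 fragments. Scaled for depth, the pileup ratio of the pair with neighbouring summits was 1.05 (0.698 to 1.58).

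At the main TSS of *KRT8* itself, a peak with its summit 116 bp upstream in the control and 123 bp upstream in the IFN-γ library had fold enrichments of 6.73 and 7.42, with 17 and 28 fragments. A further group lay about 20 kb upstream, inside the long *KRT8* transcripts, and was called in both libraries. Its peak with the ETS octamer CCGGAAGT had fold enrichments of 4.65 and 5.84, with 13 and 27 fragments and a scaled ratio of 1.43 (0.711 to 3.01). In all, 9 control peaks and 8 IFN-γ peaks were within 3 kb of a *KRT8* TSS, more than at any other keratin gene in either library. *KRT8* also has 18 annotated TSSs, more than any other keratin gene, and so the widest windows.

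*KRT7*, a type II keratin of glandular and simple epithelia, had 5 promoter peaks in the control and 4 in the IFN-γ library. The strongest lay at an alternative TSS in intron 6, 11103 bp downstream of the main TSS in the control library, and TGAGTCA lay 98 bp from the IFN-γ summit. It had 37 fragments over a background of 1.73 in the control library and 41 fragments over 4.96 in the IFN-γ library. Fold enrichment was accordingly 13.9 and 7.05, while the scaled pileup ratio was 0.761 (0.476 to 1.22), an interval that includes 1. At the main TSS of *KRT7* a control peak had its summit 30 bp downstream at 5.74-fold, and there no IFN-γ peak had its summit within 1 kb. A pair upstream of that TSS fell from 9.18 to 4.64 in fold enrichment, with 23 and 25 fragments and a scaled ratio of 0.747 (0.407 to 1.38).

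*KRT19*, the type I keratin without a tail domain, and *KRT15*, a type I keratin of basal cells, are neighbours and shared their strongest peak. Its summit was 2.98 kb upstream of the main TSS of *KRT15* in the control library and 2.95 kb in the IFN-γ library, beyond the 3′ end of *KRT19*, and within 3 kb of shorter annotated *KRT19* transcripts. It had 45 fragments in the control and 100 in the IFN-γ library, at fold enrichments of 15.3 and 21.1. The scaled ratio was 1.53 (1.06 to 2.22), wholly above 1 by counting error. The TGACTCA motif lay 25 bp from the IFN-γ summit. At the main TSS of *KRT19* the nearest summit was 4.41 kb away in the control library, inside the gene, and 1.81 kb away in the IFN-γ library, where a weak peak upstream had a fold enrichment of 3.06. The remaining simple epithelial gene, *KRT20*, a keratin of gut and urothelium, had no peak, and the nearest summit was 22.002 kb from its TSS in the control library and 18.1 kb in the IFN-γ library.

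The basal pair *KRT5* and *KRT14*, the keratins that mark the proliferating layer of squamous epithelium, had no promoter or gene body peak in either library. The nearest summit to *KRT5* was 64.4 kb away in the control library and 25.7 kb away in the IFN-γ library. For *KRT14* these distances were 26.1 and 37.5 kb. Among the 3 genes listed as basal, a peak was thus present at *KRT15* alone.

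The keratins of stressed and activated epidermis, induced in wounds and in many squamous tumours, had a peak at 3 of 5 genes. *KRT16* had a peak at its TSS in the control library, with 10 fragments, a fold enrichment of 5.35 and an AP-1 motif, and none in the IFN-γ library. *KRT17* had a peak with its summit 41 bp upstream of the main TSS in the control and 83 bp upstream in the IFN-γ library. There the fold enrichment was 4.08 and 4.69, with 14 and 12 fragments, and the scaled ratio, 0.589 (0.249 to 1.37), had an interval that includes 1. A second control peak, 1370 bp upstream, had a fold enrichment of 4.38. *KRT6A* had a peak in the IFN-γ library alone, with its summit 1.43 kb upstream of its main TSS, 30 fragments and a fold enrichment of 6.33. *KRT6B* and *KRT6C* had none, but the interval between them held the site described below. *KRT6A*, *KRT6B* and *KRT6C* are near-identical in sequence, and *KRT14*, *KRT16* and *KRT17* have close copies elsewhere on chromosome 17. A mapping-quality filter for the ChIP reads is not given in the sources used here, so reads of these genes may have been split among copies, and its part in their low or missing peaks was not tested.

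Of the 12 suprabasal and differentiation keratins, 4 had a peak. *KRT10*, the type I keratin of the differentiating epidermis, held the strongest keratin peak of both libraries, ranked 856 of 30819 in the control list and 896 of 39654 in the IFN-γ list by −log10 p. It had 79 fragments in the control and 102 in the IFN-γ library, at fold enrichments of 28.7 and 36.2. The scaled pileup ratio was 0.887 (0.655 to 1.21), and its interval includes 1. Its summit was not at the *KRT10* TSS but 3.63 and 3.56 kb inside the gene, in exon 7, where the antisense transcript gene *KRT10-AS1* starts. The IFN-γ peak was wider, 1296 bp against 667 bp, and reached the 3 kb window by its edge, which is why *KRT10* counted as a promoter call in that library alone: with the summit required in the window it did not count. *KRT1*, its type II partner, had no peak, and the nearest summit was 61.2 kb from its main TSS in the control library and 7.83 kb in the IFN-γ library.

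*KRT78* had a peak 0.983 kb inside the gene in the control library, in exon 2, with 15 fragments and a fold enrichment of 6.84. The overlapping IFN-γ peak had 15 fragments and a fold enrichment of 4.60, with a scaled ratio of 0.687 (0.313 to 1.51). Its summit was 388 bp from the control summit, in intron 2, so this ratio does not compare the same summit. A further IFN-γ peak in intron 6 of *KRT78*, with 10 fragments and a fold enrichment of 3.74, lay on a run of 8 GGAA units. *KRT13*, the keratin of the suprabasal layers of mucosal squamous epithelium, and *KRT79* had peaks in the IFN-γ library alone, with 22 and 26 fragments and fold enrichments of 4.70 and 6.85, each with an AP-1 motif. The *KRT13* peak was 5.30 kb from its main TSS, downstream of the gene's main transcript, and counted through a shorter transcript. No peak was found at *KRT1*, *KRT2*, *KRT3*, *KRT4*, *KRT9*, *KRT12*, *KRT76* or *KRT77*.

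The hair keratins had the fewest. Of 9 genes of the inner root sheath and companion layer, 1 had a peak, *KRT75*, in the control library alone, with 10 fragments and a fold enrichment of 3.85. Of 17 hair shaft genes, 4 had one. *KRT34* had a peak in exon 7 in both libraries, with 12 and 15 fragments, fold enrichments of 6.33 and 6.02 and a scaled ratio of 0.859 (0.375 to 2.01). *KRT36*, *KRT81* and *KRT86* had peaks in the IFN-γ library alone, with fold enrichments of 3.74, 4.60 and 4.60, and the *KRT81* and *KRT86* value is that of a single peak in the stretch where both genes are annotated. Of the 4 remaining genes, *KRT24* and *KRT222* had none. *KRT23* had a peak in exon 2 in the IFN-γ library alone, with 15 fragments and a fold enrichment of 6.31. *KRT80*, a type II keratin found in many epithelia, had a peak at its TSS in both libraries, with its summit 95 and 93 bp inside exon 1, 26 and 30 fragments and fold enrichments of 9.22 and 6.47. The scaled ratio there was 0.792 (0.453 to 1.39).

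**Figure D2:**
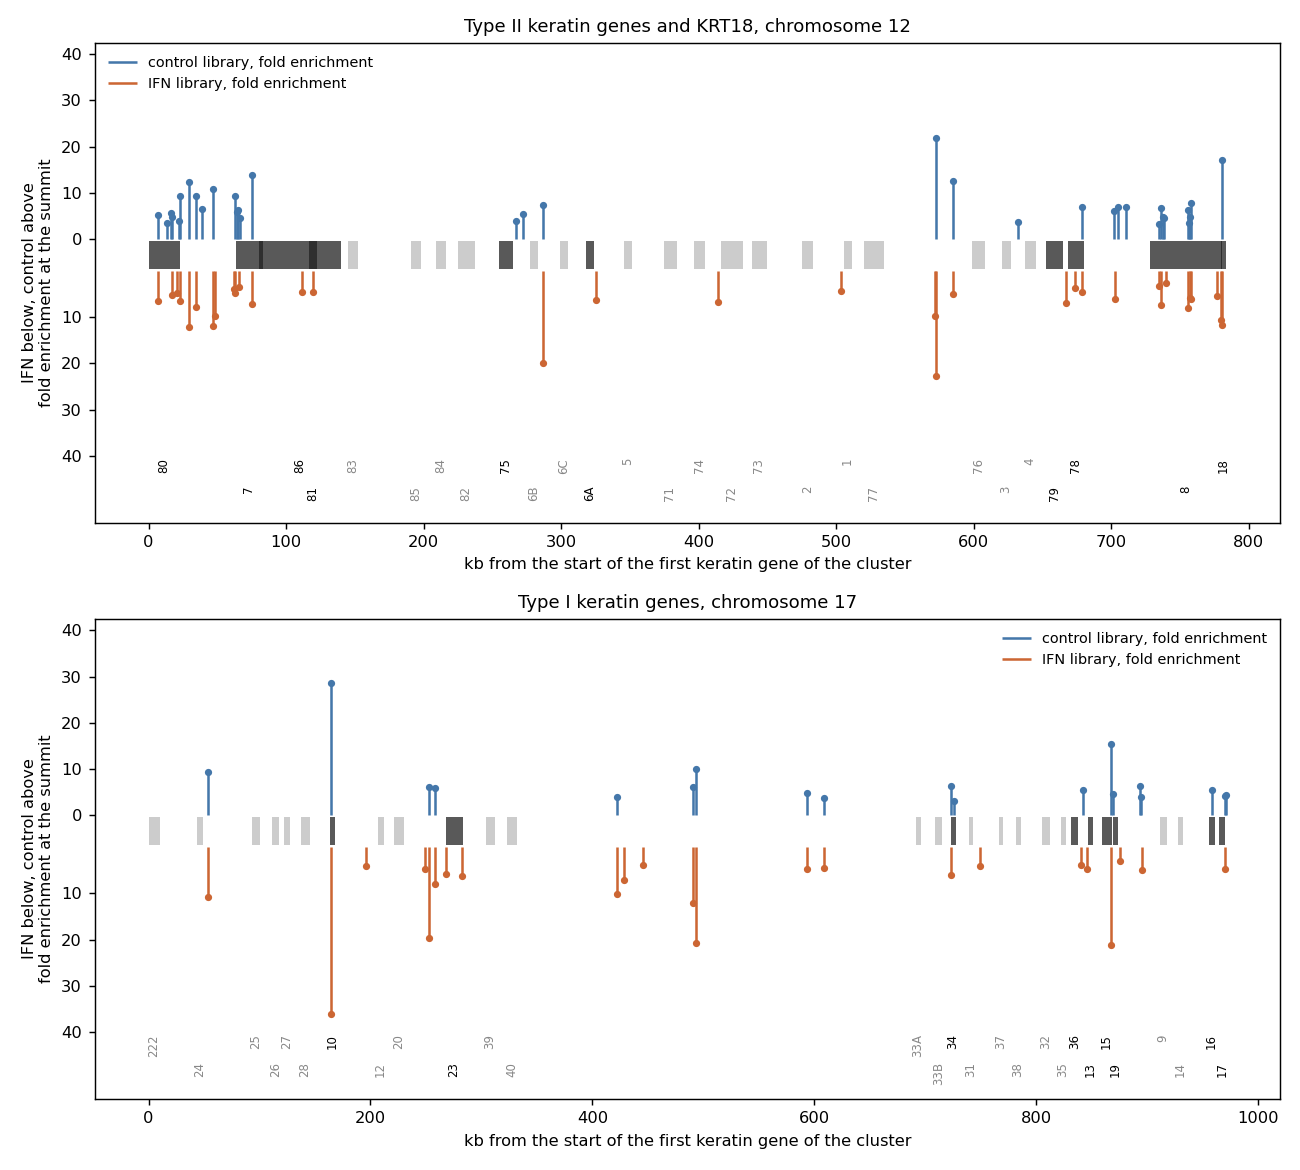
Peaks along both clusters in kb from the start of the first keratin gene, with fold enrichment at the summit drawn upwards for the control library (blue) and downwards for the IFN-γ library (orange); boxes are keratin genes, dark where a promoter or gene body peak was called and grey where none was, with the number of the gene's name beneath. Peaks crowd at both ends of the chromosome 12 cluster, at *KRT80*, *KRT7* and at *KRT8*, *KRT18*, and at the right end of the chromosome 17 cluster.

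The peaks were unevenly spread along the clusters. Of the 53 control peaks, 27 were at promoters, 3 in gene bodies and 23 between genes, and of the 57 IFN-γ peaks these were 28, 3 and 26. Stretches of the clusters were compared by peaks per 100 kb, with their limits chosen after the values were seen. The stretch from *KRT80* to *KRT81* held 10.3 peaks per 100 kb in the control and 9.58 in the IFN-γ library, and that of *KRT8* and *KRT18* held 11.6 and 9.63. Over chromosomes 1 to 22 and X the values were 1.02 and 1.31. The 540 kb from *KRT83* to *KRT78* had 1.296 and 1.85 peaks per 100 kb. They hold the inner root sheath, companion layer, stress, basal and suprabasal type II genes, and the hair shaft type II genes except *KRT81* and *KRT86*. On chromosome 17, the stretch from *KRT13* to *KRT17* had 5.91 and 4.43, while that from *KRT222* to *KRT40* had 1.19 and 2.38 and that from *KRT33A* to *KRT36* had 1.37 in each library.

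Between genes, the 5 peaks of highest fold enrichment in the control library were 2 between *KRT77* and *KRT76*, 2 between *KRT80* and *KRT7* and 1 in the interval from *KRT40* to *KRT33A*. The strongest was the *KRT77* to *KRT76* site with the ISRE letters, 35760 bp downstream of the TSS of *KRT76* in the control library. It had 46 fragments in the control and 85 in the IFN-γ library, at fold enrichments of 21.9 and 22.7, with a scaled ratio of 1.27 (0.876 to 1.86). The other *KRT77* to *KRT76* site had fold enrichments of 12.6 and 5.07, with 26 and 22 fragments and a scaled ratio of 0.581 (0.314 to 1.07), the lowest of the keratin pairs. The *KRT80* to *KRT7* sites had control values of 12.4 and 10.8 and IFN-γ values of 12.04 and 11.98, and the *KRT40* to *KRT33A* site had 9.97 and 20.8.

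In the IFN-γ library the 5 highest were the *KRT77* to *KRT76* site, the *KRT40* to *KRT33A* site, 1 between *KRT6B* and *KRT6C*, 1 between *KRT20* and *KRT23*, and the *KRT40* to *KRT33A* site with a run of 12 units, at 12.2. The *KRT6B* to *KRT6C* site, 3.85 and 3.88 kb upstream of *KRT6B* in the control and IFN-γ libraries, had 16 fragments in the control and 68 in the IFN-γ library, at fold enrichments of 7.28 and 19.8. Its scaled ratio, 2.92 (1.67 to 5.39), was the highest of the keratin pairs. The 13-unit GGAA site between *KRT20* and *KRT23* had 12 fragments in the control and 49 in the IFN-γ library, at fold enrichments of 6.03 and 19.7, with a scaled ratio of 2.80 (1.47 to 5.79).

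**Figure D3:**
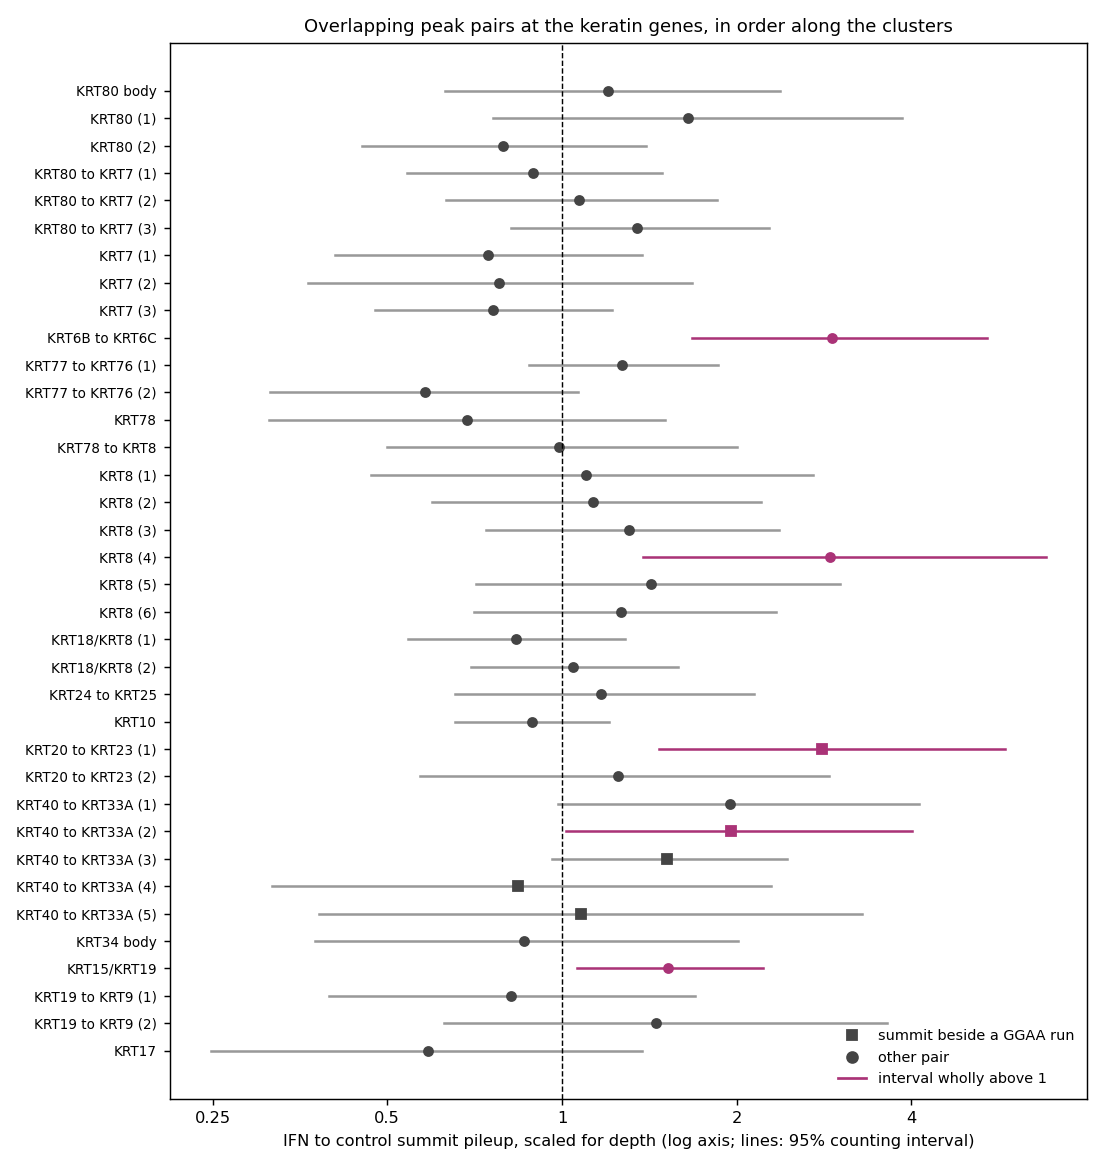
Ratio of the summit pileup in the IFN-γ library to that in the control library, scaled for depth (log axis), for the 36 pairs of overlapping peaks at the keratin genes, in order along the clusters, with exact 95% counting intervals; squares are summits beside runs of at least 4 GGAA units. The intervals of 5 pairs (purple) lie wholly above 1 and none lies wholly below 1.

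In all, 36 pairs of overlapping peaks were found at the keratin genes. The interval of the scaled ratio was wholly above 1 at 5 of them, with 12.1% of all 24639 pairs as the background, and wholly below 1 at 0, with 8.92% of all pairs. The median ratio was 1.12 over the keratin pairs and 1.00 over all pairs. Among all pairs it was 0.874 where both peaks were within 3 kb of any gene's TSS and 1.24 where neither was. Besides the *KRT6B* to *KRT6C*, *KRT20* to *KRT23* and *KRT15* and *KRT19* sites, the 5 were the *KRT40* to *KRT33A* site with the 12-unit run, which had 13 and 37 fragments and a ratio of 1.95 (1.02 to 4.01), and a pair upstream of *KRT8* with 9 and 38 fragments and a ratio of 2.90 (1.38 to 6.82). The summits of the latter pair were 779 bp apart, and the same IFN-γ peak also paired with a second control peak 17 bp away at a ratio of 1.305 (0.740 to 2.37), so it is not a comparison of the same summit. Some other pairs also had summits far apart, by up to 1332 bp. With the pileups left unscaled, the ratio at *KRT10* was 1.29 (0.953 to 1.75) instead of 0.887.

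Of the control peaks at the keratin genes and clusters, 35 of 53, 66.0% (51.7% to 78.5%), overlapped an IFN-γ peak, against 77.5% of all control peaks. Of the IFN-γ peaks, 34 of 57, 59.6% (45.8% to 72.4%), overlapped a control peak, against 61.0% of all. Fold enrichment at the keratin peaks had a median of 5.95 in the control library, against 6.81 over all peaks, and of 6.02 in the IFN-γ library, against 6.57. It ranged from 2.99 to 28.7 in the control library and from 2.69 to 36.2 in the IFN-γ library.

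Fold enrichment depends on the local background, which differed between the libraries. After scaling for depth, the IFN-γ to control ratio of the local background had a median of 1.61 over the 9 pairs from *KRT80* to *KRT81* and 1.295 over the 9 pairs at *KRT8* and *KRT18*, against 1.1795 over all pairs. The 4 pairs from *KRT83* to *KRT78* had a median ratio of 1.47, so the higher background was not particular to these 2 stretches. It was 1.44 over the 22 pairs of the whole chromosome 12 cluster. It was 1.03 over the 14 pairs of the chromosome 17 cluster. Fold enrichment was lower in the IFN-γ library at 6 of the 9 *KRT80* to *KRT81* pairs and at 4 of the 9 *KRT8* and *KRT18* pairs, against 12648 of all 24639 pairs. The median scaled pileup ratio from *KRT80* to *KRT81* was 0.893, and no interval was wholly below 1. The cause of the difference in background was not tested.

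Both strands of the 100 bp on either side of a summit were searched for motifs. The AP-1 letters TGANTCA were found at 13 of 53 control summits, 24.5% (13.8% to 38.3%), against 17.7% of all control peaks, and at 17 of 57 IFN-γ summits, 29.8% (18.4% to 43.4%), against 22.1%. Promoter peaks stood further from the background of all promoter peaks. Several of the keratin ones counted through alternative TSSs far from the main TSS, as at *KRT7*, 11103 bp downstream of it in the control library. In the control library 8 of 27 keratin promoter peaks held the letters, 29.6% (13.8% to 50.2%), against 10.1% of all promoter peaks, and in the IFN-γ library 10 of 28 did, 35.7% (18.6% to 55.9%), against 13.6%. The genes were *KRT7*, *KRT8*, *KRT15*, *KRT18*, *KRT19* and *KRT80* in both libraries, with *KRT16*, *KRT34* and *KRT75* in the control and *KRT13*, *KRT36*, *KRT78* and *KRT79* in the IFN-γ library. In gene bodies and between genes the shares were 19.2% (6.55% to 39.4%) in the control and 24.1% (10.3% to 43.5%) in the IFN-γ library. Over all peaks more than 3 kb from any gene's TSS they were 27.7% and 29.6%. The intervals of the keratin promoter shares include these values too. Keratin peaks were classed by keratin TSSs alone, so some of them lay within 3 kb of another gene's TSS, and the sets differ. Within 50 bp of the summit, 5 of the 13 control and 7 of the 17 IFN-γ keratin summits still held an AP-1 motif. The share over all peaks at that distance is not given here.

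An ETS octamer, CAGGAAGT or CCGGAAGT, lay at 3 control summits, 5.66% (1.183% to 15.7%), against 12.8% of all, and at 4 IFN-γ summits, 7.02% (1.95% to 17.004%), against 13.5%. The interval includes the value over all peaks in each library. The GGAA core alone, which the octamer contains, was present at 52 of the 53 control summits and at all 57 IFN-γ summits, against 96.1% and 97.9% of all peaks. The ISRE letters were at 5 control summits, 9.43% (3.13% to 20.7%), against 4.07% of all, and at 4 IFN-γ summits, 7.02% (1.95% to 17.004%), against 7.96%. Apart from the *KRT77* to *KRT76* site, these were all in the interval from *KRT40* to *KRT33A*. Each of the summits in that interval with the ISRE letters also held a run of 3 to 12 GGAA units.

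Runs of at least 4 GGAA units lay at 5 control summits, 9.43% (3.13% to 20.7%), against 6.94% of all, and at 6 IFN-γ summits, 10.5% (3.96% to 21.5%), against 10.8%. All but the IFN-γ summit in *KRT78* were between type I genes on chromosome 17, 4 in each library in the interval of keratin-associated protein genes from *KRT40* to *KRT33A* and 1 between *KRT20* and *KRT23*. These 5 sites were called in both libraries and had a median scaled ratio of 1.52, close to the 1.55 of all 2218 pairs with such a run. Of the 5, 2 had intervals wholly above 1, and 30.7% of all pairs with a run did. The sites with 5 units each had ratios of 0.839 (0.316 to 2.29) and 1.08 (0.382 to 3.28), from 7 to 11 fragments.

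Keratin promoters were poor in CpG. In the 250 bases before and 50 from the main TSS, the median number of CpG dinucleotides was 3 over the 55 keratin genes and 23 over 20033 protein-coding genes, and the ETS octamers were found in 0 keratin windows, against 8.97% of all. The TGANTCA letters were found in 5, those of *KRT13*, *KRT14*, *KRT15*, *KRT16* and *KRT17*, 9.09% against 5.44% of all. The keratin genes with a promoter peak in at least 1 library had a median of 6 CpG and those without one had 2. *KRT18* had the most, 36, followed by *KRT7* with 29 and *KRT19* with 18. All of these had a peak within 3 kb of some TSS in both libraries, but not always at the main TSS. The nearest control summit was 4.41 kb from the main TSS of *KRT19*, and the nearest IFN-γ summit was 1.28 kb from that of *KRT7*.

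The same counts were read by CpG content, with no test of the differences. With 0 to 5 CpG, 9 of 40 keratin genes had a promoter peak in at least 1 library, 22.5%, against 24.2% of 3655 genes. With 6 to 10 CpG these were 5 of 9, 55.6%, against 40.3%, and with 11 to 20 CpG 2 of 4, 50%, against 64.7%. *KRT72*, with 17 CpG, and *KRT14*, with 11, were the keratin genes richest in CpG among those without a peak.

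Genes whose products join keratin filaments to cell junctions had promoter peaks at a share near that of all genes. Of 17 desmosome and keratin linker genes, 10 had a promoter peak in the control library, 58.8% against 61.9% of all genes, and 11 in the IFN-γ library, 64.7% against 59.7%, *DSC3* in the latter alone with a fold enrichment of 5.52. *PLEC*, which encodes the linker plectin, had the strongest, with fold enrichments of 39.1 and 36.4. It also had 13 promoter peaks in each library, more than any other gene of that list. *PKP3*, a plakophilin, had 29.1 and 19.8, *PKP2* had 19.8 and 6.38, and *DSP*, the desmoplakin gene that anchors keratins in desmosomes, had 11.1 and 7.95. No promoter peak was found at *DSC1*, *DSC2*, *DSG1*, *DSG3*, *DSG4* or *PKP1*. Of 15 other intermediate filament genes, 9 had one in the control library, 60% against 61.9% of all genes, and 10 in the IFN-γ library, 66.7% against 59.7%, among them the nuclear lamin gene *LMNB1* with 23.1 and 16.8 and the vimentin gene *VIM* with 7.69 and 7.49. *INA*, *PRPH*, *NEFL*, *NEFM* and *NEFH*, of neuronal filaments, had none. Of 94 keratin-associated protein genes, which encode the matrix of hair, promoter peaks were called at 4 in the control, 4.26%, and at 6 with IFN-γ, 6.38%, the strongest at *KRTAP4-5*, the *KRT40* to *KRT33A* site with the 11-unit run.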

How the data were processed

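Paired-end reads were trimmed with Cutadapt 1.18, aligned to GRCh38 with Bowtie2 2.3.4.1, stripped of duplicates with picard and called per library with MACS 2.1.2 by the authors. Whether the input was used in calling is not given in the sources used here. For each peak the deposited lists give a display score (not used), the fold enrichment over local background, and −log10 of p and of q, as the authors' caller wrote them. The methods name a p-value cutoff, and the lowest −log10 q in the lists were 1.302 and 1.318. All listed peaks were used, and positions were made 1-based.

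Summit pileups and backgrounds were solved from fold and −log10 p, and pileups were scaled by the ratio of the lowest backgrounds. Genes, TSSs and exons were from GENCODE release 44, roles of keratins were assigned by hand, and peaks were shared from 1 bp of overlap. Intervals are Clopper-Pearson, or for ratios the exact binomial interval of the fragments, at 95%. Named genes were all keratin genes with a promoter or gene body peak in at least 1 library, and intergenic sites were the 5 of highest fold per library. Members and lists were chosen with earlier results of these data known. Overlap, motif and pileup steps were tested on simulated data. Software was samtools 1.23.1 and Python 3.11.15 with scipy 1.17.1, pysam 0.24.0, numpy 2.4.6, matplotlib 3.10.9 and pandas 2.3.3.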

Additional observations from a re-analysis of the deposited data

How the results depend on the processing

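Of 58 alternative values of 15 results, 48 stayed within 1.5 times the count or inside the interval of the reported value. A q-value cutoff of 1e-05 left 34 control peaks at the keratin genes and clusters, and promoter windows and gene bodies alone held 30 control and 31 IFN-γ peaks. Windows of 1 kb left 8 keratin genes with a promoter peak in the IFN-γ library. Requiring an overlap of 50% of each peak lowered the shared shares to 45.3% (control) and 42.1% (IFN-γ). Within 50 bp of the summit the AP-1 shares were 9.43% and 12.3%, and CCGGAAGT alone was found at 1.75% of IFN-γ summits. The values over all peaks at these settings are not given here. Without scaling, the *KRT10* ratio was 1.29. No paired analysis was possible because the groups held 1 Flag library each. With median pileups of 14 and 23 fragments at the keratin peaks, ratios of most single sites have intervals that include 1, and differences of that size were not detectable at this depth.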
